A study of Arabidopsis thaliana with 6 samples.

Results

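The transcripts of 9 Arabidopsis thaliana genes for large heat shock chaperones, their partners and their regulators are described here in RNA sequencing of stressed leaves. They were taken by locus code, as a set chosen with earlier results of these data known: the chaperone genes HSP70B, HSP70-4, HSP90.1 and HSP101, the co-chaperone genes ROF1 and ROF2, the regulator genes HSFA2 and MBF1C, and ATERDJ3A, which encodes a DnaJ protein of the endoplasmic reticulum (ER). All 9 were among the 20297 genes listed in any stress, with 9 of 18734 in PEG, 9 of 19468 in NaCl and 8 of 18168 in cold, where ROF2 was not listed. The libraries came from leaves of 2-week-old plants of 2 genotypes, Col-0 and lsm1a lsm1b, the latter a mutant in both genes for the LSM1 subunit of the cytoplasmic ring that binds deadenylated mRNA and promotes its decapping. Plants on soil were chilled at 4 °C for 24 h under weaker light than during growth. Plants on plates were transferred for 10 h to medium with either 55% polyethylene glycol (PEG), an osmotic stand-in for drought, or 150 mM NaCl. The 6 libraries were single ones, 1 for each genotype in each stress, and no unstressed plants are part of what was analysed here. The labels give no mutant alleles and no number of plants per library.

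Heat shock chaperones bind proteins that have lost their fold and hold, refold or release them. In the cytosol HSP70 works with DnaJ partners, HSP90 receives client proteins from it, and HSP101 pulls proteins out of aggregates. ROF1 and ROF2 are FKBP-type proteins. ROF1 binds HSP90, and in Arabidopsis both bear on the activity of the heat factor HSFA2. HSFA2 extends the heat response once it has been started by HSFA1 factors, and MBF1C is a transcriptional coactivator needed for heat tolerance. Heat factors bind DNA as trimers at heat shock elements, made of the unit GAA and its complement TTC in turn.

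The stretches below show the 3-unit elements found before the genes, with a 2-unit one for comparison. They are the known binding sequence of heat factors, of which HSFA2 is the one in the set. The 500 bases before each deposited transcript start were read from the reference genome (TAIR10.1, RefSeq) on the strand of the gene. Both strands were covered by searching GAANNTTC and TTCNNGAA for 2 units, and GAANNTTCNNGAA and TTCNNGAANNTTC for 3 units. Several genes also hold 2-unit matches nearer to the start that are not printed. Each 3-unit match holds a pair of overlapping 2-unit matches. Capitals mark the units with the bases between them, and each sequence is written 5′ to 3′. The first 4 hold 3 units and the last, before ROF1, holds 2.
HSP70-4, chr3:3993846-3993875, minus strand: tttactcgtGAACGTTCTCGAAagctcttt
HSP90.1, chr5:21352253-21352282, plus strand: aaacgaaaaGAACTTTCTGGAAttcgtttg
HSFA2, chr2:11135527-11135556, plus strand: attagtaacGAAGTTTCTGGAAcattgtct
ATERDJ3A, chr3:2737405-2737434, plus strand: tatatgtcaTTCGAGAAATTTCcttttttt
ROF1, chr3:9188111-9188140, plus strand: gatcatctgtgTTCTCGAAccatcttttta
The 3-unit form was found before 4 of the 9 genes and before 0.903% of 20051 protein-coding genes. The first base of the match lay at -74 for HSP70-4, -137 for HSP90.1, -146 for HSFA2 and -123 for ATERDJ3A, counted from the deposited start. The 2-unit form was found before 7 of the 9 and before 30.6% of all windows, with HSP70B and ROF2 the members without it. A match is a description of the letters, and no match says only that they are not in that window.

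The summed counts per library ran from 10289392 (lsm1a lsm1b, cold) to 22639128 (lsm1a lsm1b, NaCl). LSM1A, 1 of the 2 mutated genes, had at least 206 counts in every Col-0 library and at most 26 in those labelled lsm1a lsm1b. LSM1B had 152 and 39 counts in cold and 207 and 98 in PEG, but 195 in Col-0 and 439 in the NaCl library labelled lsm1a lsm1b, which goes against that label. Every value of lsm1a lsm1b in NaCl below is that of the library so labelled. All 8 leaf markers, among them RBCS1A and RCA, were listed in every stress. In counts scaled for library size (CPM) they summed to 6678 and 7414 in PEG, 28872 and 23611 in NaCl, and 52930 and 34695 in cold, Col-0 first. Root markers summed to 148 and 197 CPM in cold, with 5 of 8 listed, and to between 1548 and 1964 CPM on plates, with 8 of 8 listed. None of the 11 seed storage and oil body markers was listed in cold. In PEG all 11 were, at 665 and 1187 CPM, and in NaCl 9 were, at 49.1 CPM in Col-0, where 1 of them was at 0, and 750 CPM in the library labelled lsm1a lsm1b. Flower markers were at most 1.94 CPM in any library. The part of these differences in the results below was not tested.

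Among the chaperones, HSP70-4 (AT3G12580, TAIR10 chr3:3991261-3993792), a stress-inducible cytosolic HSP70, was the most abundant transcript of the set on both plate treatments. Col-0 had 1343 counts in cold, 47046 in PEG and 10762 in NaCl, and the libraries labelled lsm1a lsm1b had 1413, 24444 and 12495. Scaled for gene length and library size (RPKM) this was 1036 and 567 in PEG, 225 and 235 in NaCl, and 53.2 and 63.8 in cold. Both PEG libraries lay above both NaCl libraries, and those above both cold libraries. In the PEG library of Col-0 it ranked 18th of all listed genes by count and in that of lsm1a lsm1b 57th, against 1633rd and 1338th in cold. It made up 80.2% and 73.0% of the counts of the 9 genes in PEG and 37.5% and 35.8% in cold.

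HSP70B (AT1G16030, chr1:5502206-5504535), another inducible cytosolic HSP70, was much lower. It had 1632 and 480 counts in PEG, 203 and 217 in NaCl, and 93 and 72 in cold, Col-0 first. The PEG library of Col-0 stood above all others, at 35.2 RPKM, with that of lsm1a lsm1b next at 10.9, and the remaining 4 lay between 3.18 and 4.15 RPKM. PEG was thus 8.39-fold above NaCl in Col-0 and 2.70-fold in the libraries labelled lsm1a lsm1b.

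HSP90.1 (AT5G52640, chr5:21352399-21355361), the heat-inducible cytosolic HSP90, had 2695 and 2213 counts in PEG, 984 and 1341 in NaCl, and 252 and 267 in cold. Its level followed the order cold, NaCl, PEG in both genotypes, from 9.20 and 11.1 RPKM through 18.9 and 23.3 to 54.7 and 47.3. HSP101 (AT1G74310, chr1:27936508-27940190), the cytosolic disaggregase, had 965 and 543 counts in PEG, 425 and 482 in NaCl, and 111 and 98 in cold. It took the same order, at 3.2 RPKM in both cold libraries, 6.4 and 6.5 in NaCl, and 15.3 and 9.1 in PEG. HSP101 shares 101 bases with AT1G74300 on the opposite strand, and the sources used here do not give whether counting used strand.

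ROF1 (AT3G25230, chr3:9188181-9191419) differed least between stresses. It had 2541 and 2773 counts in PEG, 2205 and 3515 in NaCl, and 1704 and 1848 in cold. Its 6 levels lay between 52.3 and 94.7 RPKM, the library labelled lsm1a lsm1b was above Col-0 in each stress, and it was the most abundant of the set in cold. ROF2 (AT5G48570, chr5:19690542-19693845), the heat-inducible relative of ROF1, had 236 and 142 counts in PEG and 305 and 104 in NaCl. Both plate treatments thus had the lower level in the library labelled lsm1a lsm1b, at 3.5 against 5.6 RPKM in PEG and 2.1 against 6.8 in NaCl. Every gene listed for a stress had at least 1 RPKM in at least 1 of its libraries, and for cold, where ROF2 was not listed, no value is given.

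HSFA2 (AT2G26150, chr2:11135682-11137396) was the least abundant regulator, with 105 and 192 counts in PEG, 170 and 321 in NaCl, and 9 and 38 in cold. The library labelled lsm1a lsm1b was higher in each stress, and the NaCl libraries were above the PEG libraries of the same genotype, unlike the chaperones. In RPKM the levels were 3.8 and 7.3 in PEG, 5.8 and 9.9 in NaCl, and 0.6 and 2.8 in cold. MBF1C (AT3G24500, chr3:8918679-8919308) had 2334 and 1781 counts in PEG, 505 and 952 in NaCl, and 29 and 98 in cold. Its level was 186 and 150 RPKM in PEG, 38.2 and 64.9 in NaCl, and 4.16 and 16.0 in cold. Its span over the stresses was the widest of the set: in Col-0 PEG was 42.9-fold above cold, and in lsm1a lsm1b 9.24-fold. The reference places an antisense RNA, AT3G04685, over 176 bases of MBF1C, and their reads cannot be told apart without strand.

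ATERDJ3A (AT3G08970, chr3:2737537-2740530), also known as TMS1, encodes a DnaJ partner of the ER-resident HSP70 called BiP. It had 1104 and 910 counts in PEG, 125 and 167 in NaCl, and 36 and 111 in cold. The PEG libraries were far above the rest, at 27.2 and 23.6 RPKM, while cold gave 1.6 and 5.6 and NaCl 2.9 and 3.5. In Col-0 cold was the lowest stress, whereas among the libraries labelled lsm1a lsm1b NaCl was.

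**Figure D1:**
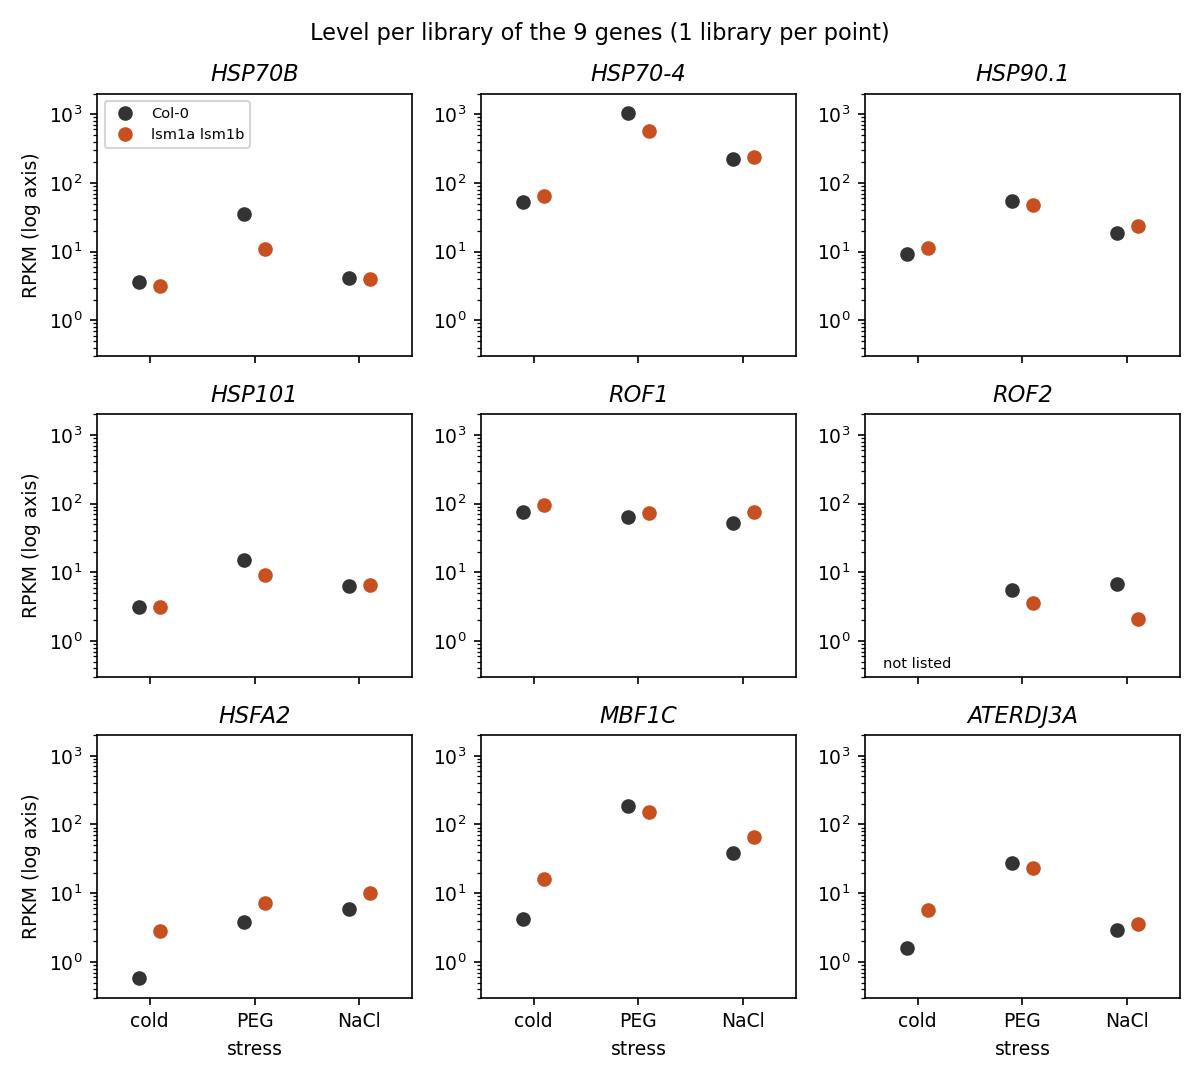
Level of each of the 9 genes in RPKM on a log axis, by stress, with Col-0 in black and the libraries labelled lsm1a lsm1b in orange; each point is 1 library. HSP70-4 reaches 1036 RPKM in the Col-0 PEG library, ROF1 stays between 52.3 and 94.7, and ROF2 was not listed in cold.

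The inducible cytosolic chaperones belong to families with other members that are expressed without heat. Of the summed RPKM of the 5 cytosolic HSP70 genes measured, HSP70-4 made up 1.82% and 1.46% in cold, 9.80% and 10.0% in NaCl, and 44.6% and 36.5% in PEG, Col-0 first. The family total moved less, from 2921 and 4377 RPKM in cold to 2321 and 1554 in PEG. HSP70-1, HSP70-2 and HSP70-3 were each lower in PEG than in cold in both genotypes. HSP70-1, the main constitutive HSP70, was at 1828 and 2310 RPKM in cold and at 1058 and 610 in PEG. HSP90.1 made up 1.24% and 1.21% of the 4 cytosolic HSP90 genes in cold, 3.49% and 3.02% in NaCl, and 13.6% and 10.8% in PEG. MBF1C made up 1.31% and 5.87% of the 3 MBF1 genes in cold and 28.1% and 22.1% in PEG. In their coding sequences HSP70-4 was 76.6% identical to HSP70B and 79.3% to 79.7% to HSP70-1, HSP70-2 and HSP70-3. No window of 50 bases was shared between them, nor between HSP90.1 and HSP90.2, HSP90.3 or HSP90.4 or between ROF1 and ROF2. The sources used here give no read length.

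**Figure D2:**
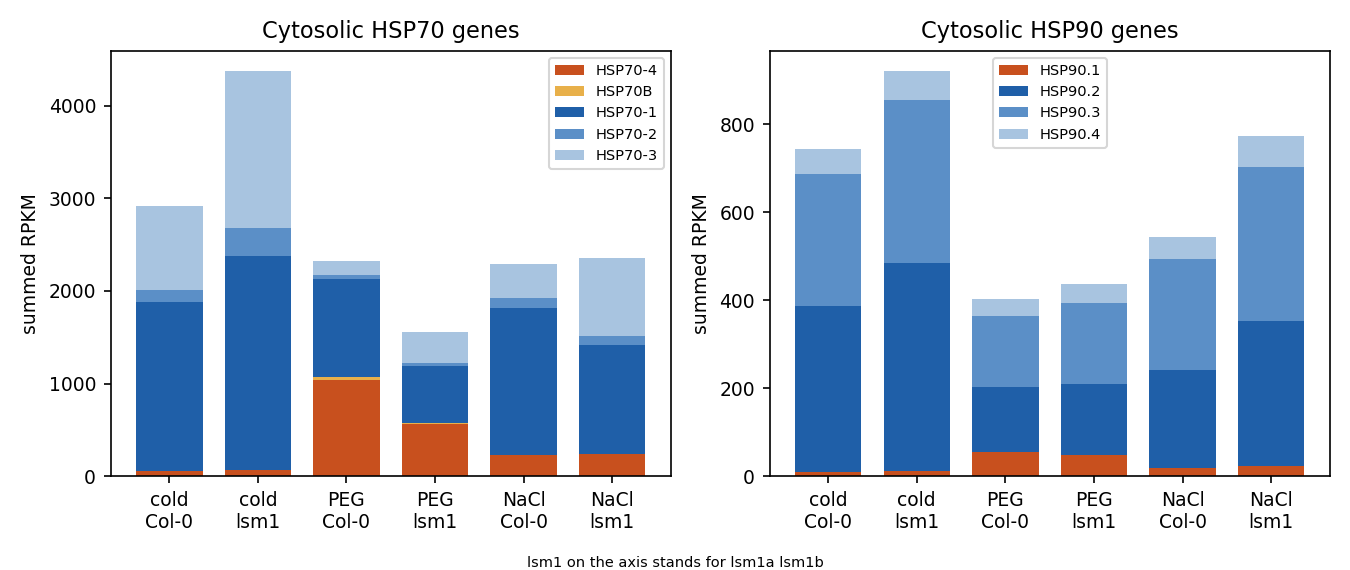
Summed RPKM of the cytosolic HSP70 genes (left) and HSP90 genes (right) in the 6 libraries, 1 bar per library, with a colour for each gene. HSP70-4 (orange) makes up 44.6% of the HSP70 bar in the Col-0 PEG library and 1.82% in the Col-0 cold library; HSP90.1 (orange, right) makes up 13.6% and 1.24%.

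The plate treatments were compared over both genotypes with edgeR's quasi-likelihood test, fitted to all 6 libraries with stress and genotype as terms and Benjamini-Hochberg adjustment over 16927 genes. The labels name no separate sets of plants, and the 2 genotypes of a stress stand in for its replicates. Of the 8 members tested, 4 were higher in PEG than in NaCl and 0 lower, where 3.21% of all genes were higher and 5.33% lower. ATERDJ3A was 3.02 higher on the log2 scale (SE 0.50, adjusted p 0.037), HSP70B 2.33 (SE 0.46, 0.047), HSP70-4 1.77 (SE 0.34, 0.045) and HSP90.1 1.28 (SE 0.20, 0.034), each higher in PEG in both genotypes. MBF1C had a difference of 1.83 (SE 0.49, adjusted p 0.078) and HSP101 one of 0.88 (SE 0.26, 0.091), also positive in both genotypes, and did not pass. DESeq2's Wald test called 5 of the 8, among them MBF1C (adjusted p 0.0028), while HSP101 missed the threshold there too (0.052). HSFA2, at -0.54 (SE 0.37, adjusted p 0.369), and ROF1, at 0.12 (SE 0.17, 0.660), were not separated between the plate treatments. The median difference was 1.53 over the 8 members and 0.00 over all genes. In the same fit 5 of the 8 leaf markers were lower in PEG and 0 higher (median -1.73), and their part in these differences was not tested. In bulk leaf RNA, fewer cells of a type and less RNA per cell cannot be told apart. Leaving out any 1 PEG or NaCl library, with the lone library left assumed to vary like the other groups, ended all 4 calls, and 0 of all genes then passed. The differences stayed positive, from 2.35 (without the Col-0 PEG library) to 3.55 (without the lsm1a lsm1b PEG library) for ATERDJ3A, and likewise from 1.48 to 3.05 for HSP70B, 1.22 to 2.25 for HSP70-4 and 1.03 to 1.52 for HSP90.1. With genotype left out of the fit 1 of the 4, HSP90.1, was still called.

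Cold was compared with the mean of the plate treatments in the same fit. Soil or plates, light and duration differ with temperature and cannot be told apart from it. Of the 8 members, 6 were lower in cold and 0 higher, where 21.3% of all genes were lower and 21.8% higher. The largest log2 differences were those of MBF1C (-3.36, SE 0.52, adjusted p 0.0072) and HSP70-4 (-2.86, SE 0.33, 0.0037). HSFA2 (-2.13, SE 0.39, adjusted p 0.0116), HSP90.1 (-1.70, SE 0.18, 0.0032), HSP101 (-1.47, SE 0.25, 0.0090) and HSP70B (-1.45, SE 0.41, 0.041) followed, with both cold libraries below all 4 plate libraries for each. ATERDJ3A had a difference of -1.46 (SE 0.45, adjusted p 0.051), and its cold library of lsm1a lsm1b was above both NaCl libraries. DESeq2's Wald test called 7 of the 8, ATERDJ3A among them (adjusted p 0.0037). With total count scaling edgeR also called ATERDJ3A (adjusted p 0.038). ROF1 was the member with a positive difference (0.38, SE 0.14, adjusted p 0.085). Of the markers, 8 of 8 leaf genes were higher in cold (median 1.86) and 3 of the 5 root genes tested were lower and 0 higher (median -2.02), and their part in these differences was not tested. Without the PEG pair HSP70B was at -0.26 and HSP101 at -1.02, and neither passed; HSP70B also missed the threshold without the Col-0 cold, the Col-0 PEG or either NaCl library, and HSP70B and HSFA2 missed it with genotype left out of the fit.

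**Figure D3:**
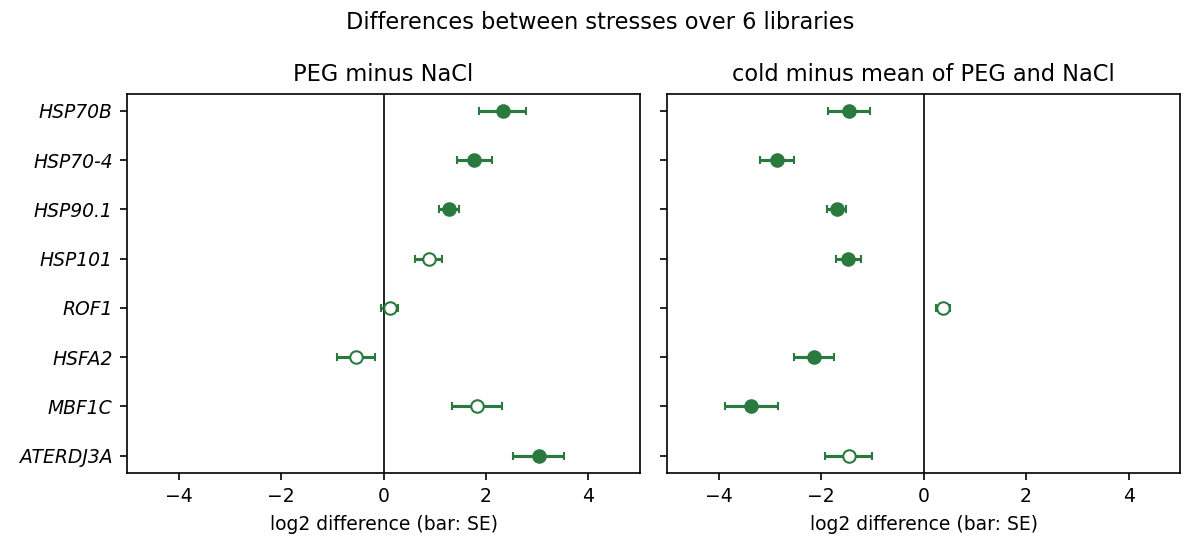
Fitted log2 difference of the 8 members measured in all 6 libraries, PEG minus NaCl on the left and cold minus the mean of both plate treatments on the right; bars are the SE and filled points passed an adjusted p of 0.05 in edgeR. The 4 filled points on the left lie between 1.28 and 3.02 and the 6 on the right between -3.36 and -1.45, while ROF1 lies near 0 in both.

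The study's own question was how the transcriptomes of lsm1a lsm1b and Col-0 differ in each stress. With 1 library per genotype there is no replicate check within a stress, so ratios are given with the 95% exact binomial interval of the counts, a measure of counting error alone. The rule for a gene apart was 2-fold or more and a level of 5 CPM or above in the higher library. Ratios are log2 of lsm1a lsm1b over Col-0.

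In cold, 2 of the 7 members past the level limit were higher in lsm1a lsm1b and 0 lower, where 8.26% of all genes were higher and 5.13% lower. These were MBF1C (1.86, interval 1.33 to 2.59) and ATERDJ3A (1.75, 1.25 to 2.39). HSFA2 had a ratio of 2.02 (1.19 to 3.49) but lay under the level limit, at 0.75 and 3.58 CPM. HSP70-4 (0.25, 0.15 to 0.36), HSP90.1 (0.26, 0.01 to 0.52) and ROF1 (0.30, 0.20 to 0.39) were higher by less than 2-fold with intervals above 0. For HSP70B (-0.18, -0.65 to 0.27) and HSP101 (0.00, -0.41 to 0.41) no difference was detectable at this depth. MBF1C, ATERDJ3A and HSFA2 thus lay furthest from 0, and they also had the fewest counts of the listed members in the Col-0 cold library (29, 36 and 9). The median was 0.28 over the 8 listed members and -0.01 over all genes.

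In PEG, 1 of 9 members was lower in lsm1a lsm1b and 0 higher, where 3.65% of all genes were lower and 3.60% higher. HSP70B was that gene, at -1.68 (-1.83 to -1.53). HSP70-4 (-0.86, -0.88 to -0.84), HSP101 (-0.74, -0.90 to -0.59) and ROF2 (-0.64, -0.96 to -0.34) were lower by less than 2-fold. MBF1C (-0.30, -0.39 to -0.21), HSP90.1 (-0.20, -0.28 to -0.12) and ATERDJ3A (-0.19, -0.32 to -0.07) were lower by smaller amounts. HSFA2 (0.94, 0.61 to 1.31) and ROF1 (0.21, 0.13 to 0.29) were the 2 members on the other side, so 7 of 9 ratios were below 0, with a median of -0.30 against 0.01 over all genes. With total count scaling HSFA2 reached 1.04 and counted as higher.

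In NaCl, 1 of 9 members was lower in the library labelled lsm1a lsm1b and 0 higher, where 4.46% of all genes were lower and 5.50% higher. ROF2 was that gene (-1.70, -2.05 to -1.39), while its relative ROF1 was at 0.51 (0.43 to 0.59). Both regulators had a ratio of 0.75, with intervals of 0.48 to 1.03 for HSFA2 and 0.59 to 0.91 for MBF1C. HSP90.1 was at 0.28 (0.16 to 0.40) and HSP70-4 at 0.05 (0.01 to 0.09). The intervals of ATERDJ3A (0.25, -0.09 to 0.60), HSP101 (0.02, -0.17 to 0.21) and HSP70B (-0.07, -0.35 to 0.21) held 0. In this library LSM1B was 2-fold higher than in Col-0 and the seed markers were at 750 against 49.1 CPM, and the part of either in these ratios was not tested.

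**Figure D4:**
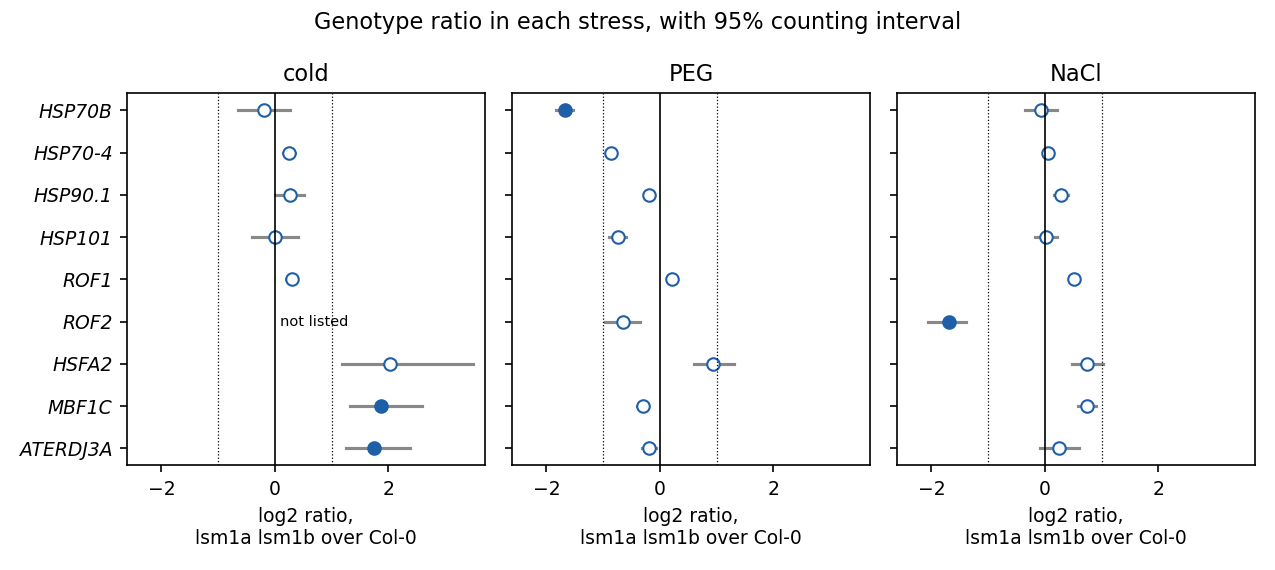
Log2 ratio of the library labelled lsm1a lsm1b over Col-0 for each gene in cold, PEG and NaCl; each point compares 2 libraries, grey bars are 95% counting intervals, dotted lines mark 2-fold and filled points passed the rule of fold and level. MBF1C and ATERDJ3A are filled in cold (1.86 and 1.75), HSP70B in PEG (-1.68) and ROF2 in NaCl (-1.70).

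Over all 3 stresses, with stress as a block, edgeR's quasi-likelihood test called 0 of the 8 members different between genotypes, where 0.213% of all genes were called. At an unadjusted p under 0.05 there was 1, HSFA2, and DESeq2 called 0. HSFA2 had a difference of 1.17 (SE 0.33, adjusted p 0.215) and was higher in the library labelled lsm1a lsm1b in 3 of 3 stresses, as was ROF1 (0.34, SE 0.14, adjusted p 0.325). In NaCl that library's LSM1B level goes against the label. HSP70B was at -0.67 (SE 0.37, adjusted p 0.440), with ratios below 0 in 3 of 3 stresses of which those in cold and NaCl had intervals that held 0. Its difference was -0.11 without either PEG library and -1.0 without either NaCl library. HSP70-4, HSP90.1, MBF1C and ATERDJ3A took opposite signs in PEG and cold.

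A further fit asked whether the genotype difference in cold differed from that on plates. It has 1 residual degree of freedom and takes PEG and NaCl as replicates of the plate treatment. No member was called by edgeR, 0 of 8 against 2.20% of all genes, with 3 at an unadjusted p under 0.05 and 0 called by DESeq2. Those 3 were ATERDJ3A (1.80 more positive in cold, SE 0.41, adjusted p 0.078), MBF1C (1.73, SE 0.55, 0.189) and HSFA2 (1.40, SE 0.55, 0.291). With total count scaling ATERDJ3A passed, at an adjusted p of 0.047.

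Other genes of the same pathways, in lists that leave out the 9, gave the setting for these values. Of the 21 other ER chaperone and unfolded protein response genes measured in cold, each above the level limit, the lsm1a lsm1b library was higher by 2-fold or more for 7 and lower for 0, against 8.26% and 5.13% of all genes, with a median ratio of 0.61. BIP3, the stress-inducible BiP gene, had 10 and 214 counts (4.34, interval 3.69 to 5.68), CRT3, a calreticulin of receptor folding, 564 and 2853 (2.52, 2.39 to 2.65), and the disulfide isomerase gene PDIL1-2 350 and 874 (1.5, 1.32 to 1.68). The same list had 0 genes past the rule in either direction in PEG and NaCl, with medians of 0.23 and 0.03. In the fit of the genotype difference in cold against that on plates, 2 of the 20 tested were called by edgeR, where 2.20% of all genes were. They were CRT3 (2.45, SE 0.32, adjusted p 0.016) and BZIP60, a transcription factor of the unfolded protein response (1.89, SE 0.31, 0.031).

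Among heat factor and other heat regulator genes in cold, 5 of the 17 others past the level limit were higher by that rule and 0 lower, against 8.26% and 5.13% of all genes (median 0.12 over the 21 measured). HSFB1, a heat factor without an activation domain, had 131 and 547 counts (2.22, 1.97 to 2.53), HSFA4A 139 and 433 (1.80, 1.54 to 2.11) and HSFB2B 107 and 259 (1.44, 1.13 to 1.80). In PEG and NaCl 0 of the 22 past the level limit were apart in either direction, with medians of -0.01 and 0.16. For the genotype difference in cold against that on plates, edgeR called 3 of the 21, where 2.20% of all genes were called. They were HSFB1 (2.03, SE 0.34, adjusted p 0.032), DREB2A (1.94, SE 0.33, 0.033) and HSFB2B (1.85, SE 0.34, 0.042). Between stresses, 11 of the 21 tested with edgeR were lower in cold than on plates and 0 higher, against 21.3% and 21.8% of all genes, led by HSFA6A (-6.14, SE 0.52, adjusted p 0.0020), HSFC1 (-1.84, SE 0.21, 0.0037) and DREB2A (-3.63, SE 0.52, 0.0062), an activator in drought and heat.

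Of the 17 other HSP70, HSP90 and HSP100 genes tested with edgeR, 11 were higher in cold than on plates and 0 lower, against 21.8% and 21.3% of all genes (median 0.80). CPHSC70-2, a chloroplast HSP70, was 2.02 higher (SE 0.15, adjusted p 0.0017), HSP70-3 1.83 (SE 0.19, 0.0030) and the chloroplast HSP90.5 1.79 (SE 0.19, 0.0032). The leaf markers were likewise called higher in cold, 8 of 8, and their part was not tested. In PEG against NaCl, CPHSC70-2 (-1.22, SE 0.19, adjusted p 0.034) and HSP70-3 (-1.32, SE 0.24, 0.041) were lower, where HSP70-4 and HSP70B were higher. Between genotypes, 1 of 17 was at least 2-fold higher in cold (HSP70-2, 1.24) and 0 lower, against 8.26% and 5.13% of all genes. HSP70-2 was also the 1 of 17 that edgeR called for the genotype difference in cold against that on plates. It was at 1.59 (SE 0.30, adjusted p 0.047), where 2.20% of all genes were called. In PEG 1 of 18 past the level limit was higher (HSP70-3, 1.19) and 1 lower, against 3.60% and 3.65% of all genes. The lower one was CLPB3, the chloroplast relative of HSP101 (-1.13). In NaCl 1 of 19 was higher, again HSP70-3 (1.19), and 0 lower, against 5.50% and 4.46% of all genes.

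In PEG, memory and small heat shock protein genes were also among those lower in lsm1a lsm1b. Of the 17 other partner and memory genes, all past the level limit, 3 were lower and 0 higher, against 3.65% and 3.60% of all genes: HSA32, which prolongs acquired heat tolerance and works with HSP101, had 1676 and 514 counts (-1.62, -1.76 to -1.48), APX2 129 and 45 (-1.40, -1.96 to -0.93), and HOP3, which links HSP70 to HSP90, 1026 and 438 (-1.14, -1.31 to -0.98). Of the 11 small heat shock protein genes past the level limit, 4 were lower and 0 higher (median -0.80 over the 13 measured), with HSP21 at 302 and 5 counts (-5.37, -7.46 to -4.59), HSP17.6A at 868 and 247 (-1.72) and HSP22.0 at 1560 and 463 (-1.66). In NaCl 0 of 16 partner genes past the limit were apart in either direction, and of 6 small heat shock protein genes 1 was higher (HSP26.5, 1.25) and 1 lower (HSP23.5, -1.55), against 5.50% and 4.46% of all genes. For PEG against NaCl, edgeR called 3 of the 15 partner and memory genes tested higher and 0 lower, against 3.21% and 5.33% of all genes. They were HSA32 (2.88, SE 0.41, adjusted p 0.032), CHIP (0.88, SE 0.17, 0.047) and the DnaJ gene AT2G20560 (1.61, SE 0.32, 0.047). Between cold and plates, 5 of the 15 were higher in cold and 3 lower, against 21.8% and 21.3% of all genes. Of the 5 small heat shock protein genes tested there, 3 were lower in cold and 0 higher. In cold 5 of the 14 small heat shock protein genes were listed, with 0 past the level limit. Of the 12 partner and memory genes past the limit in cold, 1 was lower and 0 higher, against 5.13% and 8.26% of all genes. It was GOLS1, which encodes galactinol synthase 1 (-1.46, -1.58 to -1.35).

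Across the 6 libraries HSP70-4, HSP90.1 and HSP101 ran closely together on the log2 CPM scale. Pearson's r was 0.99 for HSP70-4 with each of HSP101 and HSP90.1 and 0.95 for HSP70-4 with MBF1C. HSFA2 followed HSP70-4 less closely (0.63), and ROF1 was negative with every other member, between -0.56 and -0.05. These values describe only 6 points in 3 stress pairs of differing depth. Of 9433 other genes, 40 had r over 0.99 with HSP70-4, a limit that HSP101 passed (0.993) and HSP90.1 did not (0.987).

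The genes most like each member over the 6 libraries were as follows, as descriptions. For HSP70-4 they were AT5G15260 and AT4G02940, both at 0.998, and for HSP90.1 AT5G50780 (0.999) and UBC30 (0.998). HSP101 was nearest to AT3G02360 (0.997) and AT1G77290 (0.996), and HSP70B to TXR1 (0.998) and ARLA1A (0.995). MBF1C was nearest to AT1G16270 (0.999) and AT3G61800 (0.997), and HSFA2 to AT5G60840 (0.993) and AT1G49450 (0.991). ATERDJ3A was nearest to NIP2 (0.992) and AT5G16880 (0.988), and ROF1, whose range over the libraries was 0.86 on the log2 scale, to RPL34 (0.997) and NAC041 (0.983).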

How the data were processed

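The deposited values are unnormalized whole read counts for each gene, with a file for each library. Per the submitters' processing notes TAIR10, TopHat2 and DESeq2 were used, without versions; the sources used here give neither the counting tool nor the strand. The members and lists were chosen with earlier results of these data known. Loci were taken from the locus code, or from the transcript name in the cold files. In 270 NaCl rows and 1 PEG row the transcript name contradicted the code; none is a member.

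Libraries of a stress were scaled to each other with edgeR 4.0.16 in R 4.3.3 (TMM), and ratios took a prior count of 2. Intervals are exact Clopper-Pearson 95% intervals of the 2 counts. Across stresses, edgeR's quasi-likelihood test (two-sided, filterByExpr on genotype, adjusted p under 0.05) used the 16927 genes listed in all 3 stresses that passed the filter. ROF2, not listed in cold, was not tested. With 1 library per genotype and stress, p-values rest on how far the libraries depart from the fitted terms, with 2 residual degrees of freedom. They do not measure a spread between replicates. In the fit of the genotype difference in cold against that on plates, with 1 residual degree of freedom, that departure comes from the plate libraries alone. RPKM was computed from the counts and the deposited lengths with TMM scaling over 6 libraries.

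Beyond the members and LSM1A and LSM1B, genes named were in each stress up to 3 of every list with the ratios farthest from 0 past the rule of size, up to 3 per list with the smallest adjusted p in each test, and the 2 genes with the highest Pearson r to each member among genes with at least 10 CPM in the highest library and a log2 range of at least 1. Not every list is given for every test. The cytosolic HSP70, HSP90 and MBF1 relatives, and the leaf, root, seed and flower markers, were given as context. Alternatives were DESeq2 1.42.0, other scalings, a prior count of 0.5, limits of 1 CPM and 1.5-fold, no filter, other fit terms and each stress pair left out; leaving out single libraries was chosen after seeing the data. Scripts were tested on simulated data.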

Additional observations from a re-analysis of the deposited data

Results flagged for a closer look

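For 4 genes the genotype ratio took opposite signs in different stresses with counting intervals on either side of 0. The NaCl library labelled lsm1a lsm1b has an LSM1B level, 439 counts against 195 in Col-0, that goes against its label. Its LSM1A level, 12 counts against 273 in Col-0, goes with the label. Values in NaCl are for the library as labelled. MBF1C was higher in lsm1a lsm1b in cold and NaCl and lower in PEG, and its ratios in cold and PEG lay 2.17 apart on the log2 scale. ATERDJ3A was higher in cold and lower in PEG, 1.94 apart. HSP70-4 was higher in cold and NaCl and lower in PEG, with a largest gap of 1.11, and HSP90.1 took the same signs with a largest gap of 0.480. With 1 library per genotype and stress the difference between PEG and another stress was not tested for any of the 4.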

How the results depend on the processing

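Most member values recomputed under alternatives, 371, were counted as unchanged. Of the rest, 27 lost a call in a test, 12 gained one, 8 changed sign and 4 moved beyond their interval. A test value was counted as unchanged if it kept its direction and side of the threshold. A ratio within a stress was counted so if it stayed inside its counting interval, even across the 2-fold limit. HSFA2 in PEG, at 0.94 and with total count scaling at 1.04, is thus among the 371 and not the 12. The cause was not tested where a call changed. The labels give no replicate numbers, so libraries were paired by stress alone, as in the fit with stress as a block. The fit of the genotype difference in cold against that on plates could not be made without a pair. Leaving out the PEG or the NaCl pair leaves no residual degrees of freedom, and without the cold pair there is no genotype difference in cold to compare. Counts of the rarest members, 9 for HSFA2 and 29 for MBF1C in the Col-0 cold library, limit precision.

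Members at least 2-fold apart in PEG numbered 2 with total count scaling, which shifts the median of all genes by 0.106, and 5 with a fold limit of 1.5; in NaCl they numbered 3 with that limit. Genes called between genotypes, 36, became 839 with DESeq2, 826 without the cold pair, 0 without the PEG or the NaCl pair, 5 with no stress block, and 0 to 1061 with a library left out. Genes called for PEG against NaCl, 1446, became 3054 with DESeq2, 4861 without the cold pair, 396 with genotype left out, and 0 to 5138 with a library left out; the 4 members called became 1 and 0 to 6. Genes called for cold against plates, 7294, became 2535 without the PEG pair and 3792 to 7228 with a library left out. Genes whose genotype difference in cold differed from that on plates, 372, became 585 with total count scaling, and members called 1.

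The genotype difference changed sign for HSP70-4 (0.17) and HSP101 (0.029) without the PEG pair and for HSP90.1 (-0.020) with no stress block. With a library left out it ran from -0.40 to 0.16 for HSP70-4 and from -0.40 to 0.022 for HSP101, with both positive only without either PEG library. ROF1 ran from -0.015, without the Col-0 NaCl library, to 0.25 in PEG against NaCl.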
